A study of Homo sapiens with 30 samples.

Results

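The genes described here are 40 zinc finger genes of the short arm of chromosome 19, band 19p13, in 3 human colorectal cancer cell lines in which the histone methyltransferase SETDB1 was targeted with a hairpin. The members were taken from a list of symbols, from ZNF57 to ZNF791, and all 40 were present among the 24462 gene symbols of the count tables, each on 1 line. The rule names genes by symbol and position and uses no measured value, but the set was chosen with earlier results of these samples known. By their GRCh38 positions they fell into 3 clusters, parted wherever neighbouring members lay 500 kb or more apart. Cluster 1 held ZNF57 and ZNF77 (chromosome 19, 2900898 to 2944971), cluster 2 held 13 genes from ZNF414 to ZNF846 (8509678 to 9793180), and cluster 3 held 25 genes from ZNF653 to ZNF791 (11483427 to 12640098). Symbols outside the list were counted as 436 other ZNF genes and 18 genes of other kinds that lie between members.

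Expression was measured by QuantSeq, a method that counts 1 tag per captured mRNA close to its 3′ end, in 30 libraries that form 10 groups of 3. In Caco2 the groups were SETDB1-hairpin cells of the KRT20-positive fraction, SETDB1-hairpin cells of the KRT20-negative fraction, scramble-hairpin cells in differentiation medium, and scramble-hairpin cells with vehicle. In HCT116 and in SW480 they were SETDB1-hairpin cells of a KRT-positive fraction, SETDB1-hairpin cells of a KRT-negative fraction, and unsorted cells. Cells were transduced with retrovirus and kept in puromycin. The differentiation medium was defined by troglitazone, which activates PPARG, and 1α,25-dihydroxyvitamin D3, the active hormone form of vitamin D. No label gives the medium of the SETDB1-hairpin cells or of the unsorted cells, or the hairpin, if any, in the unsorted cells. Nor is it stated that replicates came from separate cultures. The p-values therefore measure the spread between these samples only, and in Caco2 the hairpin, the sort and possibly the medium change together. In HCT116 and SW480 the sort cannot be told apart from the hairpin in any comparison with unsorted cells. A lower level in such bulk samples can mean fewer cells that express a gene or less of its RNA in each cell, and these cannot be told apart.

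Most zinc finger genes of these clusters encode C2H2 zinc finger proteins that carry a KRAB domain. The fingers read a DNA sequence, often inside a transposable element, and the KRAB domain binds TRIM28 (also called KAP1), which brings in SETDB1 to place trimethylation on lysine 9 of histone H3. The genes arose by tandem duplication and are themselves packed in heterochromatin that carries this mark over their 3′ exons, where the zinc finger protein ZNF274 is known to recruit SETDB1. Genes of this family are thus known both as partners, through KRAB, and as targets of the enzyme that the hairpin is directed against. Neither role was examined here for any single member.

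Many promoters of clusters 1 and 3, and none searched in cluster 2, held a shared short sequence. The sequences are shown because cluster 3 genes with closely similar promoters differed in fold change. RefSeq promoter windows on GRCh38.p14, from 250 bases before to 50 bases after an annotated start, were at hand for 38 of the 40 members, and ZNF559 and ZNF763 had none. The 9-letter sequence TCCAATCAG, which contains the letters CCAAT, was searched on both strands. It was present in the windows of 19 of 24 members of cluster 3, in both members of cluster 1 and in 0 of 12 members of cluster 2. It was present in 1.04% of all 27305 genes with a window (0.849% of all 35116 windows) and in 48 of 367 other ZNF genes with a window (13.1%). The letters were picked from the members' own promoters, so these shares are a description. The whole window is shown for ZNF69, for its downstream neighbour ZNF700 and for ZNF558 of cluster 2, with the TCCAATCAG match in capitals.
ZNF69 (chr19:11887532-11887831, plus strand): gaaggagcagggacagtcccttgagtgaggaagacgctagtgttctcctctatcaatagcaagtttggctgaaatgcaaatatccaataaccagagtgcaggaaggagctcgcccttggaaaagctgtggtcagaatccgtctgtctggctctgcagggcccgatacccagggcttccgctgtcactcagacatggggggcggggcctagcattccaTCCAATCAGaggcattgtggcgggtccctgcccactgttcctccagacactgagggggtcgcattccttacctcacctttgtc
ZNF700 (chr19:11924857-11925156, plus strand): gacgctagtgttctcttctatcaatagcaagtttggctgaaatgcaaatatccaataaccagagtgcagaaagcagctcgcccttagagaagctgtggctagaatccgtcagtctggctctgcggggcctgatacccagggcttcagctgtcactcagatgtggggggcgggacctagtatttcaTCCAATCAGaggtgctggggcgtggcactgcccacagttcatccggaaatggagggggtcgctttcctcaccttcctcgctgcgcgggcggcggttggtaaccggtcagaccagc
ZNF558 (chr19:8832255-8832554, minus strand): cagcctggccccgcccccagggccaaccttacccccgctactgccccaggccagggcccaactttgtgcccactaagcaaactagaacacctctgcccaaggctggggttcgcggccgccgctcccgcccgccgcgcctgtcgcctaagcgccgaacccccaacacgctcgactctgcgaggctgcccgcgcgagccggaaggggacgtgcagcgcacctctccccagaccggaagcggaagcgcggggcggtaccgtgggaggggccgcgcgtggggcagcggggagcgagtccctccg
The ZNF69 and ZNF700 windows were identical at 229 of 268 aligned bases (85.4%), the highest identity of any member's window to that of ZNF69. ZNF439, the upstream neighbour of ZNF69, was identical to it at 192 of 300 bases (64.0%). The ZNF69 window held 8 CG dinucleotides, the ZNF700 window 14, the ZNF558 window shown 34 and a second ZNF558 window, 8822014 to 8822313, 4, against a median of 18 in the members' windows and 14 in all windows.

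The stretch around the match is shown for ZNF69 and for 7 other members of cluster 3, 14 bases to each side, with the match in capitals.
ZNF69 (chr19:11887735-11887771, plus strand): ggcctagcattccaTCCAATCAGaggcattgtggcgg
ZNF439 (chr19:11848679-11848715, plus strand): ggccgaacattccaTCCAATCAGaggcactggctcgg
ZNF440 (chr19:11814193-11814229, plus strand): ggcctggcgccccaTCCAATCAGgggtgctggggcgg
ZNF627 (chr19:11597374-11597410, plus strand): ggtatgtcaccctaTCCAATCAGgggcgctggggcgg
ZNF433 (chr19:12035722-12035758, minus strand): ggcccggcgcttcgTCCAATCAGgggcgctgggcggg
ZNF136 (chr19:12162988-12163024, plus strand): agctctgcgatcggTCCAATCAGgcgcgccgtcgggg
ZNF709 (chr19:12484838-12484874, minus strand): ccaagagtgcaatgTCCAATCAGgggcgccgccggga
ZNF791 (chr19:12610860-12610896, plus strand): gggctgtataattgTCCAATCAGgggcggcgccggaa
Of the 37 letters, ZNF439 shared 31 with ZNF69, ZNF440 shared 28, ZNF627 shared 26, ZNF433 shared 25, ZNF136 shared 22, ZNF791 shared 18 and ZNF709 shared 17. ZNF700, whose stretch lies in its window above, shared 29. In each of these counts 9 letters are the match itself, shared by construction, and how many others would agree by chance was not computed. The match lay on the strand of the gene in every member that had one except ZNF490, which starts beside ZNF791 in the opposite direction and holds the same match read on its other strand.

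Library totals ran from 5349737 to 10221854 counts, and 3 counts corresponded to between 0.294 and 0.561 counts scaled to library size (CPM). Levels below are CPM scaled by TMM factors, which were computed separately in each line, so levels set across lines are a description. SETDB1 stood at 19.7, 23.1 and 26.1 CPM in Caco2 KRT20-positive cells and at 19.5, 23.8 and 21.0 CPM in KRT20-negative cells. It stood at 32.6, 32.1 and 37.9 CPM in scramble cells in differentiation medium and at 32.2, 31.2 and 28.9 CPM in scramble cells with vehicle, so the hairpin libraries of both fractions lay below every scramble library. The log2 difference from vehicle was -0.42 ± 0.13 (SE) in KRT20-positive cells and -0.52 ± 0.13 in KRT20-negative cells, with adjusted p = 0.0119 and 0.00231 in edgeR's quasi-likelihood test. In HCT116 SETDB1 averaged 17.8 ± 14.7 CPM in KRT-positive cells, 2.90 ± 2.87 CPM in KRT-negative cells and 53.4 ± 31.7 CPM in unsorted cells (SD, n = 3 each). In SW480 it averaged 4.02 ± 6.96 CPM in KRT-positive cells, 13.2 ± 19.9 CPM in KRT-negative cells (SD, n = 3 each), and unsorted cells had 35.7, 35.9 and 15.03 CPM. Of these 4 differences from unsorted cells only that of HCT116 KRT-negative cells passed the threshold (log2 difference -4.19, adjusted p = 0.0424). It no longer did with a term for the libraries' GC trend (adjusted p = 0.113). Nor did it without KRT-negative replicate 3, KRT-positive replicate 2 or 3, or unsorted replicate 1 or 2. Epithelial markers (EPCAM, CDH1, KRT8, KRT18, KRT19, CDX2 and VIL1) summed to 3806 to 5951 CPM in Caco2, 1184 to 1745 CPM in HCT116, where VIL1 was at 0, and 2414 to 4203 CPM in SW480. The 8 fibroblast markers summed to 604.5 CPM in Caco2 KRT20-negative replicate 3 and to between 34.2 and 57.7 CPM in the other Caco2 libraries. The 5 leukocyte markers summed to 93.0 to 99.0 CPM in Caco2 KRT20-positive cells, 65.9 to 71.3 CPM in KRT20-negative cells, 67.2 to 73.4 CPM in differentiation medium and 60.6 to 68.3 CPM with vehicle. Whether these cells take part in any result below was not tested.

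The first question was whether the 19p13 genes differ between Caco2 cells with the SETDB1 hairpin and scramble cells with vehicle. ZNF69 of cluster 3 stood out, at 18.9 times the vehicle level in the KRT20-positive fraction and 18.4 times in the KRT20-negative fraction. ZNF558 and ZNF559 of cluster 2, and by less ZNF426 and ZNF627, were also higher in both fractions. Of the 32 members with enough counts to be tested, 12 rose and 0 fell in KRT20-positive cells at a false discovery rate of 5% over all genes, while of all 13968 tested genes 37.7% were called, 19.3% higher and 18.4% lower. In KRT20-negative cells 10 rose and 0 fell, while 36.2% of all tested genes were called, 18.6% higher and 17.6% lower. The members were thus called about as often as genes at large, and all their calls were in 1 direction. The median log2 fold change of the members was 0.50 in KRT20-positive cells and 0.49 in KRT20-negative cells, against 0.01 in both for all tested genes. The 3 hairpin libraries lay above all 3 vehicle libraries in 14 of 32 members in each fraction, as they did for 26.0% of all genes in the KRT20-positive and 23.0% in the KRT20-negative fraction. Because the 2 fractions are set against the same vehicle libraries, their counts are not independent of each other.

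**Figure D1:**
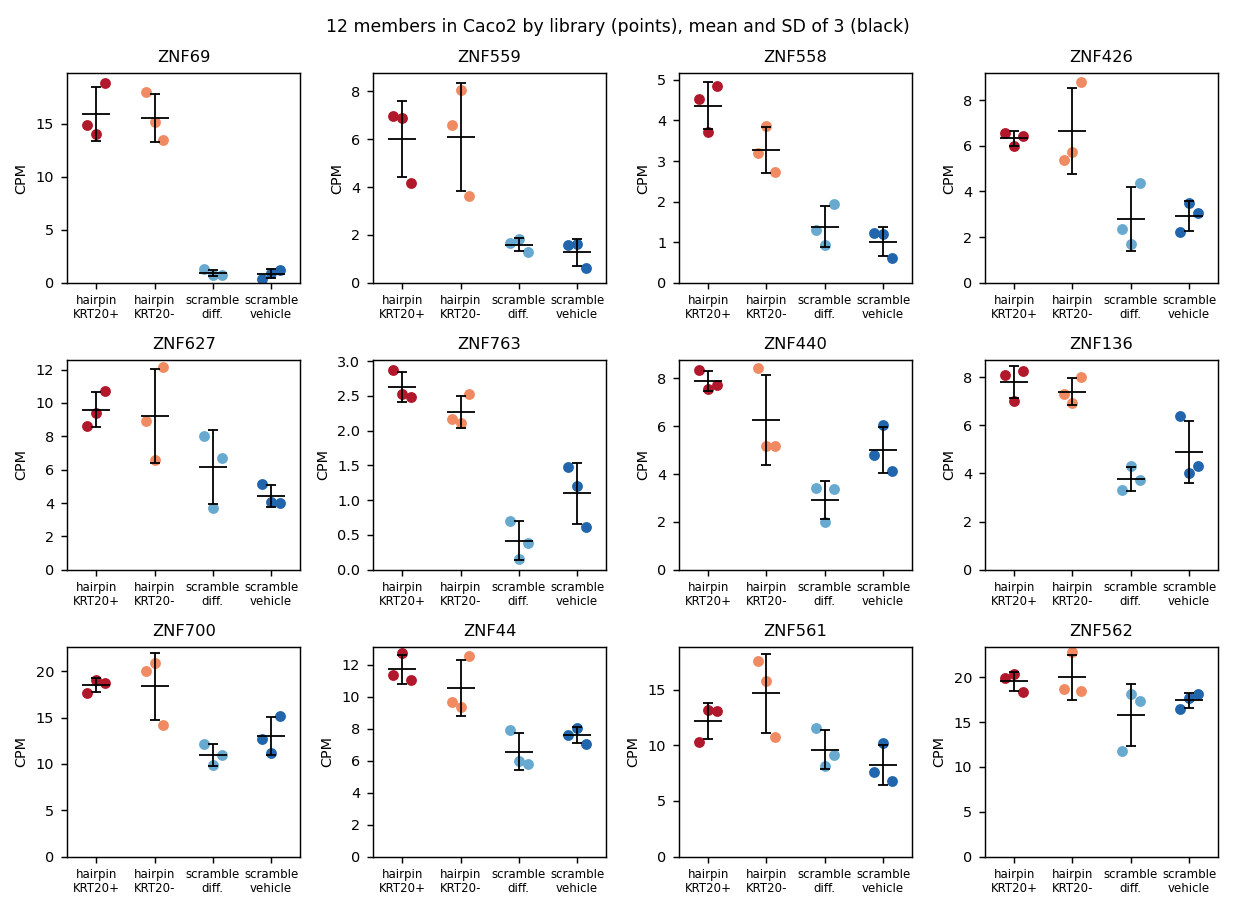
TMM-scaled CPM of 12 members in Caco2, by library (points), with the mean and SD of 3 libraries in black, for the hairpin KRT20-positive and KRT20-negative fractions, scramble cells in differentiation medium and scramble cells with vehicle. ZNF69 lies between 13.5 and 18.9 CPM in the 6 hairpin libraries and at or below 1.30 CPM in the 6 scramble libraries, while ZNF562, which was not called, overlaps between groups.

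ZNF69 lies inside cluster 3 (11887784 to 11914329, plus strand) between ZNF439 and ZNF700. It had 14.9, 14.1 and 18.9 CPM in KRT20-positive cells and 18.0, 15.2 and 13.5 CPM in KRT20-negative cells. It had 1.30, 0.768 and 0.774 CPM in differentiation medium and 0.368, 0.942 and 1.23 CPM with vehicle. The hairpin and scramble libraries were far apart, and the summed counts were 359 and 421 in the hairpin fractions, against 22 in differentiation medium and 18 with vehicle. The log2 fold change over vehicle was 4.26 ± 0.30 in KRT20-positive cells (adjusted p = 4.99e-11) and 4.22 ± 0.30 in KRT20-negative cells (adjusted p = 6.93e-11). With each of the 12 libraries left out in turn, the adjusted p of ZNF69 was at most 2.65e-09 in KRT20-positive and 3.84e-09 in KRT20-negative cells. Its neighbour ZNF700, with the closely similar promoter, had 17.7, 19.1 and 18.7 CPM in KRT20-positive cells and 20.1, 20.9 and 14.2 CPM in KRT20-negative cells. It had 12.1, 9.83 and 10.96 CPM in differentiation medium and 12.6, 11.2 and 15.2 CPM with vehicle. The KRT20-positive libraries of ZNF700 lay above those with vehicle, while KRT20-negative replicate 3 overlapped with them, and the log2 fold change was 0.51 ± 0.17 (adjusted p = 0.0196) and 0.50 ± 0.17 (adjusted p = 0.0227). ZNF439 on the other side stayed under 2 CPM in every Caco2 library and was not tested. How tags that match more than 1 of these related genes were assigned is not given in the sources used here.

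In cluster 2, ZNF558 encodes a KRAB zinc finger protein known in human neural progenitors as a repressor of the mitochondrial gene SPATA18. It had 4.52, 3.71 and 4.85 CPM in KRT20-positive cells and 3.19, 3.87 and 2.73 CPM in KRT20-negative cells. It had 1.30, 0.922 and 1.94 CPM in differentiation medium and 1.23, 1.21 and 0.614 CPM with vehicle. Every hairpin library of ZNF558 lay above every scramble library, with a log2 fold change over vehicle of 2.06 ± 0.38 in KRT20-positive cells (adjusted p = 0.000126) and 1.64 ± 0.38 in KRT20-negative cells (adjusted p = 0.0016). ZNF559 had 6.99, 6.90 and 4.19 CPM in KRT20-positive cells and 6.62, 8.08 and 3.65 CPM in KRT20-negative cells. It had 1.65, 1.84 and 1.29 CPM in differentiation medium and 1.60, 1.61 and 0.614 CPM with vehicle. Its hairpin and scramble libraries were also separate, and the log2 fold change over vehicle was 2.20 ± 0.38 (adjusted p = 5.86e-05) in KRT20-positive and 2.21 ± 0.37 (adjusted p = 5.4e-05) in KRT20-negative cells. ZNF559 shares exons with the readthrough transcript ZNF559-ZNF177, which has a line of its own in the tables, so its tags may be split between the symbols. ZNF177, the other partner of that transcript, averaged 2.16 ± 1.39 CPM in KRT20-positive cells, 2.30 ± 1.10 CPM in KRT20-negative cells and 0.553 ± 0.487 CPM with vehicle (SD, n = 3 each) and was not called.

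Next to these, ZNF426 of cluster 2 had 6.58, 5.97 and 6.42 CPM in KRT20-positive cells and 5.36, 5.74 and 8.81 CPM in KRT20-negative cells. It had 2.36, 1.69 and 4.38 CPM in differentiation medium and 2.21, 3.497 and 3.07 CPM with vehicle, below every hairpin library. The log2 fold change of ZNF426 over vehicle was 1.12 ± 0.31 (adjusted p = 0.00606) in KRT20-positive and 1.19 ± 0.30 (adjusted p = 0.00337) in KRT20-negative cells. ZNF627, near the start of cluster 3, had 8.64, 9.42 and 10.7 CPM in KRT20-positive cells and 8.90, 6.56 and 12.2 CPM in KRT20-negative cells. It had 8.01, 3.69 and 6.71 CPM in differentiation medium and 5.16, 4.04 and 3.99 CPM with vehicle. The hairpin libraries of ZNF627 lay above the vehicle libraries, and its KRT20-negative libraries overlapped those in differentiation medium. Its log2 fold change over vehicle was 1.12 ± 0.27 (adjusted p = 0.00175) in KRT20-positive and 1.06 ± 0.26 (adjusted p = 0.00268) in KRT20-negative cells. Together with ZNF69, ZNF558 and ZNF559, ZNF426 and ZNF627 kept their calls over vehicle in both fractions whichever of the 12 libraries was left out. Over differentiation medium, ZNF627 was not called in either fraction.

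The remaining calls over vehicle were smaller or rested on single libraries. ZNF561 had 10.3, 13.1 and 13.1 CPM in KRT20-positive cells, 17.6, 15.8 and 10.7 CPM in KRT20-negative cells, 11.6, 8.14 and 9.16 CPM in differentiation medium and 7.61, 10.2 and 6.75 CPM with vehicle. Every hairpin library of ZNF561 lay above the vehicle libraries, with log2 fold changes of 0.57 ± 0.21 (adjusted p = 0.0402) in KRT20-positive and 0.83 ± 0.21 (adjusted p = 0.00297) in KRT20-negative cells. The call of ZNF561 in KRT20-positive cells was lost without KRT20-positive replicate 2 or 3 or vehicle replicate 1 or 3, with an adjusted p of up to 0.159. ZNF136 had 8.09, 7.03 and 8.25 CPM in KRT20-positive cells, 7.30, 6.91 and 8.0 CPM in KRT20-negative cells, 3.30, 4.30 and 3.74 CPM in differentiation medium and 6.39, 4.04 and 4.30 CPM with vehicle. The hairpin libraries of ZNF136 lay above all scramble libraries. Its log2 fold changes over vehicle were 0.66 ± 0.22 (adjusted p = 0.0243) and 0.58 ± 0.22 (adjusted p = 0.0432), lost without 4 and 8 of the 12 libraries, vehicle replicates 2 and 3 among them in both fractions. ZNF44 had 11.4, 12.7 and 11.01 CPM in KRT20-positive cells, 9.70, 9.37 and 12.6 CPM in KRT20-negative cells, 7.90, 5.99 and 5.80 CPM in differentiation medium and 7.61, 8.07 and 7.06 CPM with vehicle. The hairpin libraries of ZNF44 again lay above the scramble libraries, with a log2 fold change over vehicle of 0.62 ± 0.19 (adjusted p = 0.0118) in KRT20-positive cells, lost without KRT20-positive replicate 2 (0.0518), and 0.48 ± 0.19 (adjusted p = 0.0513) in KRT20-negative cells.

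ZNF266 had 8.91, 7.30 and 7.34 CPM in KRT20-positive cells, 9.47, 8.32 and 10.4 CPM in KRT20-negative cells, 6.60, 3.69 and 7.09 CPM in differentiation medium and 4.67, 5.65 and 6.29 CPM with vehicle. Its hairpin libraries lay above the scramble libraries, and the log2 fold change over vehicle was 0.51 ± 0.23 (adjusted p = 0.0904) in KRT20-positive cells and 0.77 ± 0.23 (adjusted p = 0.00949) in KRT20-negative cells, lost without vehicle replicate 1 (0.0587). ZNF709 had 1.65, 1.86 and 1.05 CPM in KRT20-positive cells, 1.25, 3.04 and 3.04 CPM in KRT20-negative cells, 2.24, 1.69 and 1.42 CPM in differentiation medium and 0.983, 1.48 and 0.614 CPM with vehicle. The groups of ZNF709 overlapped, and its log2 fold change over vehicle of 1.23 ± 0.45 in KRT20-negative cells (adjusted p = 0.0361) was lost without KRT20-negative replicate 2 or 3 or vehicle replicate 1 or 3. ZNF433, at 1.77 ± 0.65 CPM in KRT20-positive cells and 0.512 ± 0.639 CPM with vehicle (SD, n = 3 each), had a log2 fold change of 1.70 ± 0.66 (adjusted p = 0.047) that was lost without any of 9 libraries. The call of ZNF700 was lost without vehicle replicate 1 or 2 in both fractions, without KRT20-positive replicate 2 or 3 in the first fraction and without KRT20-negative replicate 1 or 2 in the other. The number of members called in KRT20-positive cells fell to 6 without KRT20-positive replicate 2 or 3 and to 7 without vehicle replicate 3 or with DESeq2, while in KRT20-negative cells it stayed between 8 and 11, with 9 called without replicate 3 of that fraction.

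**Figure D2:**
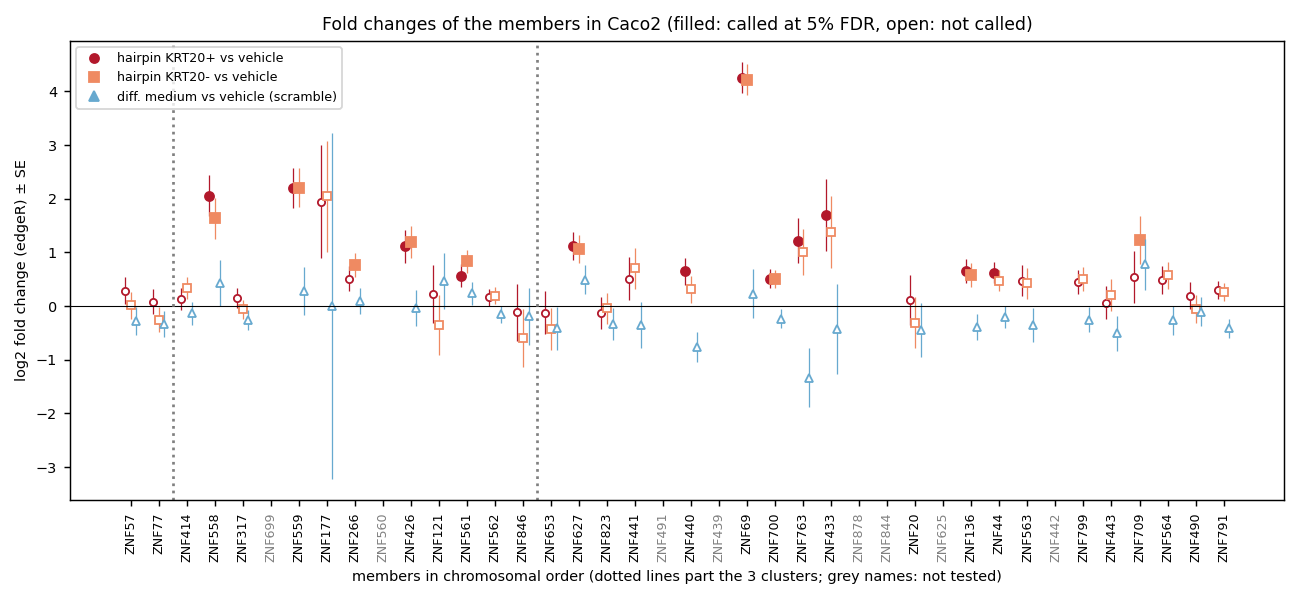
log2 fold change with its SE of the 32 tested members in Caco2, in chromosomal order, for hairpin KRT20-positive against vehicle (circles), hairpin KRT20-negative against vehicle (squares) and differentiation medium against vehicle (triangles). Filled symbols were called at a 5% false discovery rate, and all filled symbols lie above 0, with ZNF69 at 4.26 and 4.22 and no filled triangle.

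Within the chromosome, calls were spread over clusters 2 and 3. In KRT20-positive cells against vehicle, 0 of 2 tested members of cluster 1, 4 of 11 of cluster 2 and 8 of 19 of cluster 3 were called. In KRT20-negative cells against vehicle, 0 of 2, 5 of 11 and 5 of 19 were called. All of these were higher, as were 19.3% of all tested genes in KRT20-positive and 18.6% in KRT20-negative cells. By promoter, 6 of 17 tested members with the TCCAATCAG match and 4 of 13 without it were called in KRT20-positive cells against vehicle. In KRT20-negative cells 5 of 17 and 4 of 13 were. Over differentiation medium 8 of 17 and 4 of 13 were called higher in KRT20-positive cells, as were 18.0% of all tested genes. In KRT20-negative cells 9 of 17 and 6 of 13 were, against 19.6% of all tested genes. No test between members with and without the match was made. Of the 18 genes of other kinds between members only 5 were tested in Caco2. CNN1, a calponin of smooth muscle, fell in both fractions, with means of 0.0899 CPM in KRT20-positive cells, 0.314 CPM in KRT20-negative cells and 1.56 CPM with vehicle, with adjusted p = 0.00113 in KRT20-positive and 0.0126 in KRT20-negative cells. HNRNPA1P10, a processed pseudogene of the RNA-binding protein HNRNPA1 whose tags cannot be told apart from those of its parent where they share sequence, rose in KRT20-negative cells (log2 fold change 0.37 ± 0.09, adjusted p = 0.00384), with overlapping libraries. It was also higher in differentiation medium than with vehicle in scramble cells (0.29 ± 0.09, adjusted p = 0.0303 in edgeR). KRT20-negative cells did not pass the threshold over differentiation medium (0.07 ± 0.09, adjusted p = 0.571 in edgeR).

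Against the scramble cells in differentiation medium, which received both agonists, members of clusters 2 and 3 were higher. In KRT20-positive cells 0 of 2 tested members of cluster 1, 3 of 11 of cluster 2 and 11 of 19 of cluster 3 were called, and in KRT20-negative cells 0 of 2, 5 of 11 and 12 of 19. Of 32 tested members, 14 rose and 0 fell in KRT20-positive cells, while 34.5% of all tested genes were called, 18.0% higher and 16.6% lower. In KRT20-negative cells 17 rose and 0 fell, while 38.0% of all tested genes were called, 19.6% higher and 18.4% lower. The median log2 fold change of the members was 0.66 and 0.69, against 0.01 and 0.02 for all tested genes. ZNF763 had 2.88, 2.52 and 2.49 CPM in KRT20-positive cells and 2.17, 2.11 and 2.53 CPM in KRT20-negative cells. It had 0.707, 0.154 and 0.387 CPM in differentiation medium and 1.47, 1.21 and 0.614 CPM with vehicle. The hairpin libraries of ZNF763 lay above both scramble groups, and the log2 fold change over differentiation medium was 2.55 ± 0.49 (adjusted p = 0.000279) and 2.34 ± 0.49 (adjusted p = 0.00061). Over vehicle it was 1.22 ± 0.42 (adjusted p = 0.026) in KRT20-positive cells, lost without any 1 of its 3 libraries or vehicle replicate 2 or 3, and 1.01 ± 0.42 (adjusted p = 0.0646) in KRT20-negative cells.

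ZNF440 had 8.36, 7.56 and 7.73 CPM in KRT20-positive cells and 8.44, 5.15 and 5.16 CPM in KRT20-negative cells. It had 3.42, 2.00 and 3.35 CPM in differentiation medium and 4.79, 6.05 and 4.14 CPM with vehicle. The hairpin libraries of ZNF440 lay above those in differentiation medium, with log2 fold changes of 1.41 ± 0.27 (adjusted p = 0.000239) and 1.07 ± 0.27 (adjusted p = 0.00301), and the KRT20-negative libraries overlapped with vehicle. Over vehicle the values were 0.65 ± 0.25 (adjusted p = 0.0447) in KRT20-positive cells, lost without any of 6 libraries, and 0.32 ± 0.25 (adjusted p = 0.351) in KRT20-negative cells. ZNF69, at 4.03 ± 0.29 (adjusted p = 9.18e-11) in KRT20-positive and 3.99 ± 0.28 (adjusted p = 1.05e-10) in KRT20-negative cells, ZNF559 at 1.91 ± 0.36 (adjusted p = 0.000225) and 1.93 ± 0.36 (adjusted p = 0.000169), and ZNF558 at 1.63 ± 0.36 (adjusted p = 0.000967) and 1.21 ± 0.36 (adjusted p = 0.0106) were higher on this scale as well. ZNF136, ZNF700, ZNF44, ZNF426, ZNF791, ZNF799, ZNF564, ZNF563 and ZNF433 rose over differentiation medium in both fractions, with log2 fold changes between 0.68 and 2.12. ZNF266, ZNF561 and ZNF441 were called in KRT20-negative cells only, and between the fractions their adjusted p was 0.599, 0.556 and 0.862 in the same order. The calls of ZNF563, ZNF433, ZNF799, ZNF564, ZNF441, ZNF266 and ZNF561 over differentiation medium were lost in at least 1 of the single-library omissions, as was that of ZNF558 in KRT20-negative cells without differentiation medium replicate 2 (adjusted p = 0.052). Over all 4 comparisons of hairpin with scramble cells, which share their samples, 19 of 32 members were called higher in at least 1, as were 32.0% of all tested genes. In all 4, 6 of 32 were called higher, as were 8.23% of all tested genes, and these were ZNF69, ZNF558, ZNF559, ZNF426, ZNF700 and ZNF136.

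The comparison of media and the comparison of sorted fractions gave no member call in edgeR with the design used throughout. Between differentiation medium and vehicle, both in scramble cells, 0 of 32 members were called at 5% although 20.9% of all tested genes were, 3 had an unadjusted p under 0.05 (32.7% of all tested genes), and DESeq2 called 0. The median log2 fold change of the members was -0.24. The 3 members were ZNF440 (-0.75 ± 0.28, adjusted p = 0.0593), ZNF763 (-1.33 ± 0.56, adjusted p = 0.0933) and ZNF791 (-0.42 ± 0.18, adjusted p = 0.0961), all with lower means in differentiation medium. With the replicate number as a block ZNF440 (adjusted p = 0.0478) and ZNF791 (adjusted p = 0.0452) were called lower in edgeR, as was ZNF440 with library totals alone (0.0458) and without KRT20-negative replicate 1 (0.0433) or 3 (0.0412), and ZNF791 without differentiation medium replicate 1 (0.0238). For ZNF440 and ZNF791 the 3 libraries in differentiation medium lay below all 3 with vehicle, as they did for 19.4% of all tested genes. Between KRT20-positive and KRT20-negative cells, both with the hairpin, 0 of 32 members were called, 4.08% of all tested genes were, 0 members had an unadjusted p under 0.05 (16.5% of all tested genes), and DESeq2 called 0. The member fold changes between the fractions ran from -0.69 to 0.57 on the log2 scale, and that of ZNF69 was 0.04 ± 0.19. Neither count shows that the members did not differ.

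The members summed to 244.0, 230.5 and 241.5 CPM in KRT20-positive cells and to 237.1, 229.5 and 239.0 CPM in KRT20-negative cells. They summed to 149.7, 133.0 and 145.0 CPM in differentiation medium and to 160.1, 172.2 and 156.2 CPM with vehicle. The 6 hairpin libraries lay above the 6 scramble libraries in this sum. The 8 members that were not tested in Caco2 for low counts were ZNF699, ZNF560, ZNF491, ZNF439, ZNF878, ZNF844, ZNF625 and ZNF442. A further 13 were tested and not called against either scramble group, among them ZNF562, at 19.6 ± 1.1 CPM in KRT20-positive cells, 19.99 ± 2.47 CPM in KRT20-negative cells and 17.4 ± 0.9 CPM with vehicle (SD, n = 3 each). ZNF653, known as a corepressor of nuclear receptor transcription, averaged 2.63 ± 0.48 CPM in KRT20-positive cells, 2.10 ± 1.35 CPM in KRT20-negative cells and 2.87 ± 0.84 CPM with vehicle.

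Zinc finger genes outside these clusters gave the nearest comparison. Of 343 other ZNF genes tested in Caco2, 102 rose and 14 fell in KRT20-positive cells against vehicle (29.7% higher, median log2 fold change 0.30), and 104 rose and 12 fell in KRT20-negative cells (30.3% higher, median 0.33). The members had 37.5% and 31.2% higher on the same test. Over differentiation medium 33.5% of the other ZNF genes were higher in KRT20-positive and 35.9% in KRT20-negative cells (median log2 fold change 0.39 and 0.37). The members had 43.8% and 53.1% higher there. No test of the difference between these shares was made. Genes of the silencing machinery went in both directions. Of 18 such genes, which include SETDB1 itself, 4 rose and 9 fell in KRT20-positive cells against vehicle. In KRT20-negative cells 4 rose and 8 fell. Of all tested genes 19.3% were higher and 18.4% lower in KRT20-positive cells, and 18.6% and 17.6% in KRT20-negative cells. The share of the 18 that rose was 22.2% in each fraction, near that of all tested genes. ATF7IP, the nuclear partner that protects SETDB1 from degradation, averaged 308.5 CPM in KRT20-positive cells, 366.2 CPM in KRT20-negative cells and 120.7 CPM with vehicle (log2 fold change 1.35 ± 0.08, adjusted p = 9.03e-13, and 1.60 ± 0.08, adjusted p = 4.83e-14). ZNF274, the zinc finger protein that marks the 3′ ends of zinc finger genes, averaged 13.7 CPM in KRT20-positive cells, 9.98 CPM in KRT20-negative cells and 5.42 CPM with vehicle (log2 fold change 1.33 ± 0.21, adjusted p = 2.32e-05, and 0.87 ± 0.21, adjusted p = 0.00247). ATF7IP2, a paralog of ATF7IP, and the chromatin remodeler ATRX also rose in both fractions. TRIM28, the corepressor that KRAB domains bind, averaged 58.1 CPM in KRT20-positive cells, 58.4 CPM in KRT20-negative cells and 74.6 CPM with vehicle (log2 fold change -0.36 ± 0.10, adjusted p = 0.00848, and -0.35 ± 0.10, adjusted p = 0.00985). CBX1 and CBX5, which encode heterochromatin protein 1, the histone chaperone subunit CHAF1A, the DNA methyltransferase DNMT1 with its partner UHRF1, and MPHOSPH8 of the HUSH complex fell in both fractions, and FAM208A, the older symbol of the HUSH subunit TASOR, fell in KRT20-positive cells, all against vehicle. Between differentiation medium and vehicle, both in scramble cells, 4 of the 18 genes fell and 0 rose, while 20.9% of all tested genes were called. MPHOSPH8 was among the 4 that fell (log2 fold change -0.48 ± 0.11, adjusted p = 0.00427 in edgeR). CBX1 averaged 303.4 CPM in differentiation medium and 387.1 CPM with vehicle, and CHAF1A averaged 81.3 and 110.3 CPM in the same order. Over differentiation medium MPHOSPH8 was not called in KRT20-positive (0.17 ± 0.11, adjusted p = 0.263) or KRT20-negative cells (0.13 ± 0.11, adjusted p = 0.387).

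**Figure D3:**
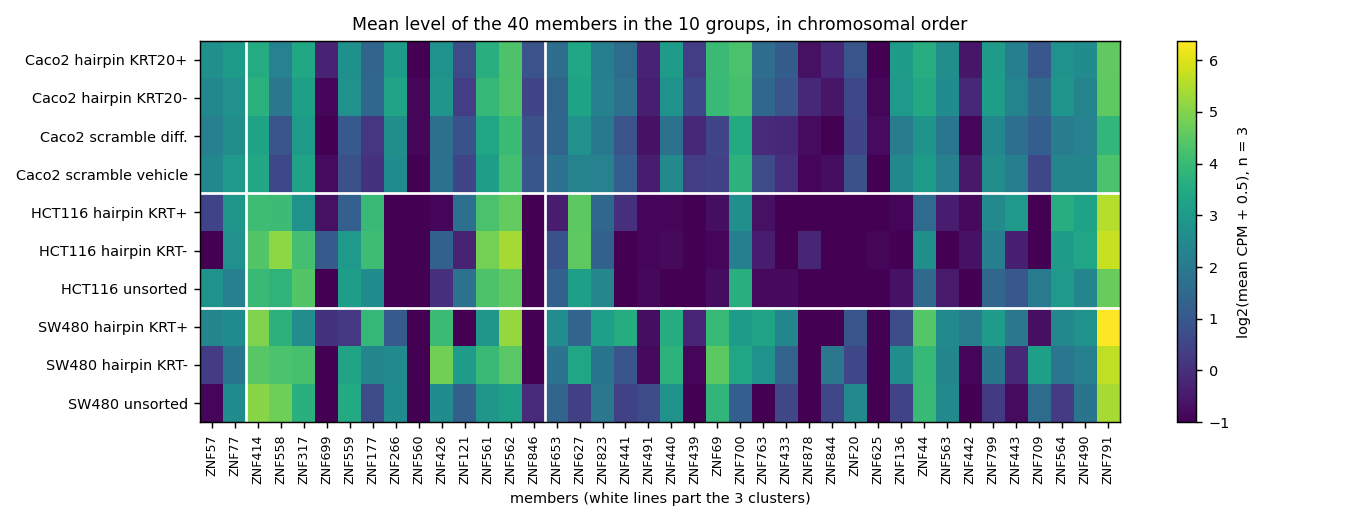
Mean TMM-scaled CPM of the 40 members in the 10 groups on a log2 scale after adding 0.5, in chromosomal order, with hairpin groups above their scramble or unsorted groups in each line. Dark cells mark members at or near 0, which fill much of cluster 3 in HCT116, where 14 of its 25 members stayed under 2 CPM in every library, and ZNF69 is bright in SW480 and in the Caco2 hairpin groups.

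The lines differed in which members were on at all. In HCT116, 17 of 40 members stayed under 2 CPM in every library, and 14 of these lay in cluster 3, between ZNF441 and ZNF442 inclusive. That stretch was not unbroken, since ZNF700 and ZNF44 lie within it and did not stay under 2 CPM. The 14 include ZNF69, ZNF440, ZNF763, ZNF433, ZNF136 and ZNF563, which rose in Caco2. In all 9 HCT116 libraries 6 members had 0 counts, namely ZNF266, ZNF560, ZNF846, ZNF439, ZNF844 and ZNF20. In SW480, 6 members stayed under 2 CPM, and ZNF560, ZNF878 and ZNF625 had 0 counts in all 9 libraries. In Caco2, 10 members stayed under 2 CPM and none was at 0 in every library. ZNF791, at the end of cluster 3, was present in all 3 lines and averaged 23.5 CPM in Caco2 KRT20-positive cells and 19.2 CPM with vehicle, 46.9 CPM in HCT116 KRT-positive cells and 24.8 CPM in unsorted cells, and 82.6 CPM in SW480 KRT-positive cells and 42.1 CPM in unsorted cells. A count of 0 in a library allows up to 3 counts, that is 0.294 to 0.561 CPM at these depths, a limit that covers counting error only.

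ZNF69 differed widely in level between lines. In HCT116 it had 0.214, 0 and 0.104 CPM in KRT-positive cells, 0, 0.108 and 0 CPM in KRT-negative cells, and 0, 0.287 and 0 CPM in unsorted cells. These rest on 3 counts in KRT-positive, 1 in KRT-negative and 2 in unsorted cells, too few for a test. In SW480 it had 7.005, 19.7 and 18.4 CPM in KRT-positive cells, 30.7, 14.4 and 22.4 CPM in KRT-negative cells, and 15.2, 20.1 and 6.97 CPM in unsorted cells. The SW480 groups of ZNF69 overlapped, with log2 fold changes over unsorted cells of 0.09 ± 0.81 (adjusted p = 0.984) and 0.67 ± 0.82 (adjusted p = 0.898), so neither difference passed the threshold. ZNF69 was thus low in Caco2 without the hairpin, at or near 0 in HCT116 with or without the hairpin label, and present in SW480 in every group.

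In HCT116 none of the 20 tested members was called in edgeR's quasi-likelihood test. For KRT-positive against unsorted cells 0 were called while 9.28% of all tested genes were, with 0 at an unadjusted p under 0.05 (22.6% of all tested genes). For KRT-negative against unsorted cells 0 were called while 5.26% of all tested genes were, with 2 at an unadjusted p under 0.05 (17.7% of all tested genes). For KRT-positive against KRT-negative cells 0 were called while 0.55% of all tested genes were, again with 0 at an unadjusted p under 0.05 (11.2% of all tested genes), and DESeq2 called 0 in all 3 comparisons. In KRT-negative against unsorted cells, 4 of 20 members had all 3 libraries above the unsorted ones, as had 12.3% of all tested genes, namely ZNF558, ZNF562, ZNF627 and ZNF791. In KRT-positive against unsorted cells 0 of 20 did, against 15.6% of all tested genes. ZNF558 had 27.1, 28.7 and 46.3 CPM in KRT-negative cells and 12.4, 8.76 and 18.8 CPM in unsorted cells (log2 fold change 1.36 ± 0.62, adjusted p = 0.262). ZNF791 had 64.7, 39.4 and 57.9 CPM in KRT-negative cells and 33.8, 23.7 and 16.8 CPM in unsorted cells (log2 fold change 1.12 ± 0.46, adjusted p = 0.204). These groups do not overlap, and the differences did not pass the threshold over all genes. ZNF177 was called in both hairpin fractions when unsorted replicate 1 was left out (adjusted p = 0.00672 in KRT-positive and 0.0104 in KRT-negative cells). It had 24.1, 14.6 and 6.67 CPM in KRT-positive cells, 13.04, 13.4 and 23.3 CPM in KRT-negative cells and 16.6, 0 and 0 CPM in unsorted cells.

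In SW480 none of the 29 tested members was called in edgeR's quasi-likelihood test either. For KRT-positive against unsorted cells 0 were called, 3.47% of all tested genes were, and 3 members had an unadjusted p under 0.05 (16.9% of all tested genes). For KRT-negative against unsorted cells 0 were called, 2.12% of all tested genes were, and 1 member had an unadjusted p under 0.05 (12.8% of all tested genes). For KRT-positive against KRT-negative cells 0 were called, 0.445% of all tested genes were, and 1 member had an unadjusted p under 0.05 (11.1% of all tested genes). DESeq2 called 1 member in each of the 3 comparisons, ZNF763 in both hairpin fractions against unsorted cells (adjusted p = 2.8e-05 and 0.000158) and ZNF121 between the fractions. ZNF763 had 16.9, 2.88 and 8.70 CPM in KRT-positive cells and 3.35, 5.11 and 10.9 CPM in KRT-negative cells, and 0 counts in all 3 unsorted libraries. Every hairpin library of ZNF763 thus lay above the unsorted libraries. Taking 3 counts over the unsorted group as its upper limit, the mean was at least 77.1-fold higher in KRT-positive and 52.4-fold higher in KRT-negative cells. That limit covers counting error only and not the spread between replicates, and edgeR gave adjusted p = 0.079 and 0.123. The 6 members whose KRT-positive libraries all lay above the unsorted ones, as did 10.4% of all tested genes, were ZNF763, ZNF562, ZNF441, ZNF426, ZNF564 and ZNF700. In KRT-negative against unsorted cells 2 of 29 members did, ZNF763 and ZNF627, against 12.8% of all tested genes. ZNF562 had 39.4, 50.7 and 19.3 CPM in KRT-positive cells, 17.1, 24.2 and 24.1 CPM in KRT-negative cells and 5.83, 1.40 and 18.4 CPM in unsorted cells (log2 fold change of KRT-positive over unsorted cells 2.09 ± 0.85, adjusted p = 0.225).

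**Figure D4:**
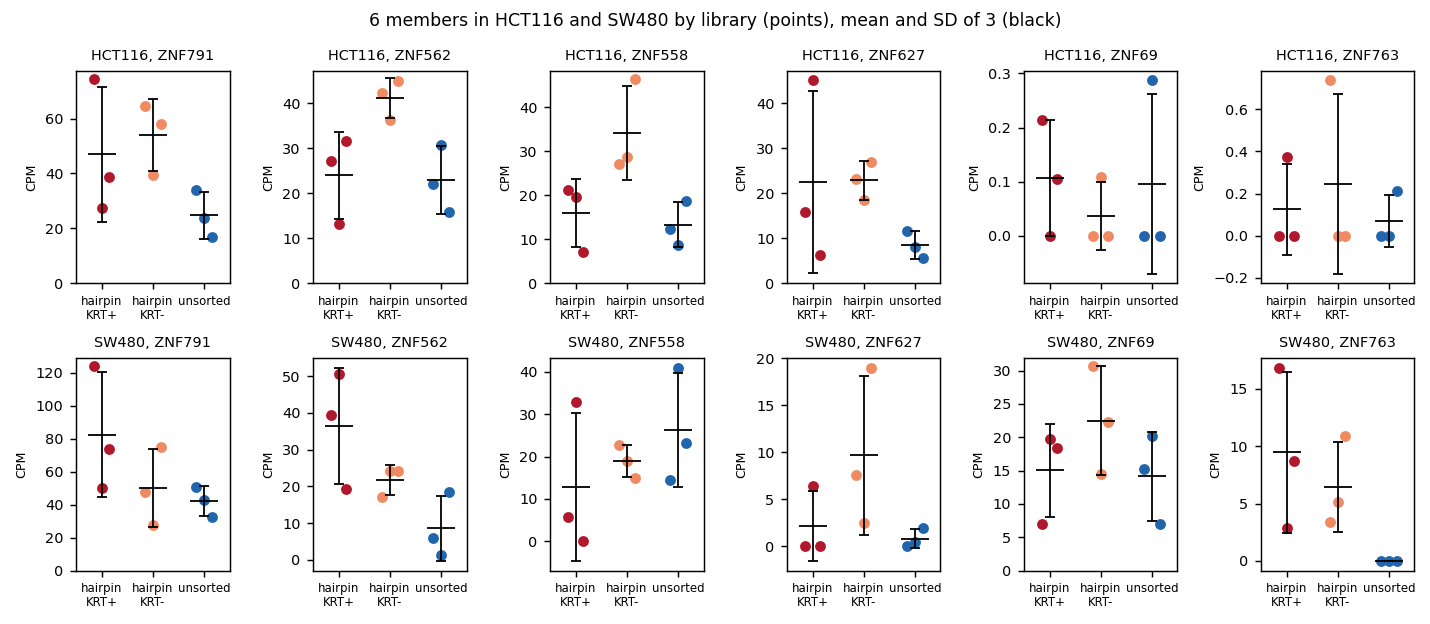
TMM-scaled CPM of 6 members by library (points) in HCT116 (top row) and SW480 (bottom row), with the mean and SD of 3 libraries in black, for the hairpin KRT-positive and KRT-negative fractions and unsorted cells. ZNF763 is at 0 in the 3 SW480 unsorted libraries and between 2.88 and 16.9 CPM in the 6 hairpin libraries, while ZNF69 stays at or below 0.287 CPM in HCT116 and overlaps between groups in SW480.

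Replicates of 1 group in these 2 lines could differ widely. ZNF57 had 0, 14.2 and 0 CPM in the 3 SW480 KRT-positive libraries, and ZNF177 had 43.2, 0 and 0 CPM there. ZNF558 had 5.79, 32.8 and 0 CPM in the same libraries, against 14.51, 41.0 and 23.3 CPM in unsorted cells. The median log2 fold change of the tested members was 0.09 in HCT116 KRT-positive and 0.54 in KRT-negative cells against unsorted cells, and 0.84 and 0.75 in SW480. The corresponding medians of all tested genes were 0.07, 0.04, 0.03 and 0.01, and those of the other ZNF genes were 0.07, 0.23, 0.48 and 0.41. Whether the response of ZNF69 or of the other members differs between lines was not tested.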

How the data were processed

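The authors deposited raw counts of QuantSeq 3′ tags per gene symbol for 30 libraries. Bowtie2, edgeR and the build hg19 are named, per the submitters' processing notes; versions, strand use and the assignment of tags that match more than 1 gene are not given in the sources used here. The 25737 lines hold 24462 symbols, since 1561 lines of 286 repeated symbols were summed. Samples were grouped by the labels. In each line, genes passing filterByExpr were fitted with edgeR 4.0.16 (R 4.3.3, TMM, robust quasi-likelihood test, all groups of the line) with Benjamini-Hochberg adjustment over all tested genes at 0.05, and SEs were obtained from each log2 fold change and its F statistic. The fits were tested on simulated data. Alternatives were other size factors, library totals, no filter, DESeq2 1.42.0, a replicate block, a term for the GC trend of HCT116 and SW480 libraries, the 2 groups alone and each library left out. Positions are GENCODE 29 (GRCh38) and promoters RefSeq GRCh38.p14; protein features were not analysed here. Values in every library are given for the 10 members with the smallest adjusted p in each Caco2 hairpin fraction against vehicle and up to 5 called in other comparisons; members with per-library values beyond these, including all in HCT116 and SW480, were chosen after their values were seen. The members and lists were chosen with earlier results of these data known. Library totals were 5349737 to 10221854 counts, and floors of 3 counts cover counting error only.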

Additional observations from a re-analysis of the deposited data

How the results depend on the processing

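For Caco2 KRT20-positive cells against vehicle, 12 members were called, 7 with DESeq2 and 6 to 12 when 1 library was left out. For differentiation medium against vehicle, 0 were called, but 1 (ZNF440) with library totals, 2 (ZNF440 and ZNF791) with the replicate number as a block, and 0 to 1 when 1 library was left out. In HCT116, leaving out 1 library gave 0 to 1 in both hairpin fractions against unsorted cells, the 1 being ZNF177 without unsorted replicate 1. In SW480, DESeq2 called 1 in each comparison, and edgeR 0. Causes were not tested. Whether replicate numbers pair the samples is not given by the labels. Same-numbered Caco2 libraries of different groups correlated in their deviations at 0.046 to 0.335 (median 0.209) and differently numbered ones at -0.28 to 0.143 (median -0.101), a hint of pairing from the data and not from the design, although not every same-numbered pair passed 0.1. In SW480 the medians were 0.093 and -0.108, and in HCT116 -0.009 and -0.007. With the block 12, 11, 15 and 18 members were called in the 4 comparisons of hairpin with scramble cells, against 12, 10, 14 and 17 without it. In HCT116 and SW480 the slope of expression on transcript GC content ran from -0.2702 to 0.2591 log2 per 10 percentage points among libraries, and in SW480 it was negative in replicate 2 of each group and positive in replicates 1 and 3. A term for its sign left 0 members called in all 6 comparisons. With library totals the median of all genes moved by 0.22 (HCT116 KRT-positive against unsorted), 0.18 (HCT116 KRT-positive against KRT-negative) and 0.10 (SW480 KRT-positive against KRT-negative) on the log2 scale. Depth limits the members at or under 3 counts a library.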
